A study of Homo sapiens with 52 samples.

Results

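The non-targeting (NT) control libraries of HS578T and MDA-MB-231, a pair of established breast cancer cell lines of the claudin-low subtype, were compared gene by gene. They make up 12 of the 52 bulk mRNA libraries of a study of Neuropilin-1 (NRP1) knockdown. Each cell line had 3 siNT libraries, from cells given 20 nM of a non-targeting siRNA and harvested 72 h after transfection. Each also had 3 shNT libraries, from cells transduced with a lentiviral non-targeting shRNA, selected in puromycin and harvested 48 h after seeding. Members were taken by cell line and treatment, as the labels give them. All 12 libraries carry an RNAi control, no untreated culture was compared, and each cell line stands for 1 tumour. The shNT replicates were consecutive passages, so p-values measure the spread between cultures of 1 line. The question was how far these models differ before NRP1 is lowered.

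Claudin-low tumours express little of the tight-junction claudins and of E-cadherin and much of the mesenchymal programme that cells adopt in epithelial-mesenchymal transition (EMT). In that transition, transcription factors of the ZEB, SNAI and TWIST families repress epithelial junction genes, while intermediate filaments, cadherins and matrix proteins of mesenchymal type appear. Both cell lines are of the type without hormone receptors.

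Expected counts added up to between 30001734 and 63173667 per library. The 10 most abundant genes held 7.98 to 10.5% of counts in HS578T and 5.47 to 6.81% in MDA-MB-231, and TMM factors, which scale libraries on the bulk of genes, were 0.805 to 0.899 and 1.11 to 1.21. Levels are given as CPM (read counts relative to the scaled library total), and differences as log2 of HS578T over MDA-MB-231 with a standard error (SE). Library totals without the factors would move the median of all genes by -0.45, and the TPM scale by -0.73. Traces of RNA of the other line were seen. For 14 genes with at least 50 CPM in every shNT library of MDA-MB-231 and at most 0.2 CPM in those of HS578T, the HS578T siNT replicates 1, 2 and 3 held a median of 0.489, 0.818 and 1.65% of the MDA-MB-231 level, whereas the shNT libraries, which had chosen the genes, held up to 0.128%. For 35 genes of the opposite kind, the MDA-MB-231 siNT replicates held 0, 0.0939 and 0.438%. A low level of a gene abundant in the other line therefore has the trace beside it, whose part in these values was not tested.

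Of 19311 genes tested with edgeR's quasi-likelihood test, 6917 (35.8%) were higher and 7138 (37.0%) lower in HS578T at an adjusted p under 0.05. Against a threshold of a 2-fold difference (glmTreat), 3879 (20.1%) were higher and 3686 (19.1%) lower (39.2% in either direction), and this is the call used for genes named as higher or lower. The 6 libraries of a line all lay above the 6 of the other for 4737 genes (24.5%) higher and 4921 (25.5%) lower in HS578T. The median difference over all genes was -0.04, and the median of its size was 1.05. With library totals alone, 5115 genes were higher and 9485 lower, so that 35.0% of called genes were higher, compared with 49.2% after TMM scaling. On the TPM scale the share was 24.7%. Without siNT replicate 3 of both lines, the libraries with most trace RNA, the 2-fold test called 4056 genes higher and 3609 lower, and from the shNT libraries alone 3509 and 3475. In bulk RNA, fewer cells expressing a gene and less RNA per cell cannot be told apart.

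**Figure D1:**
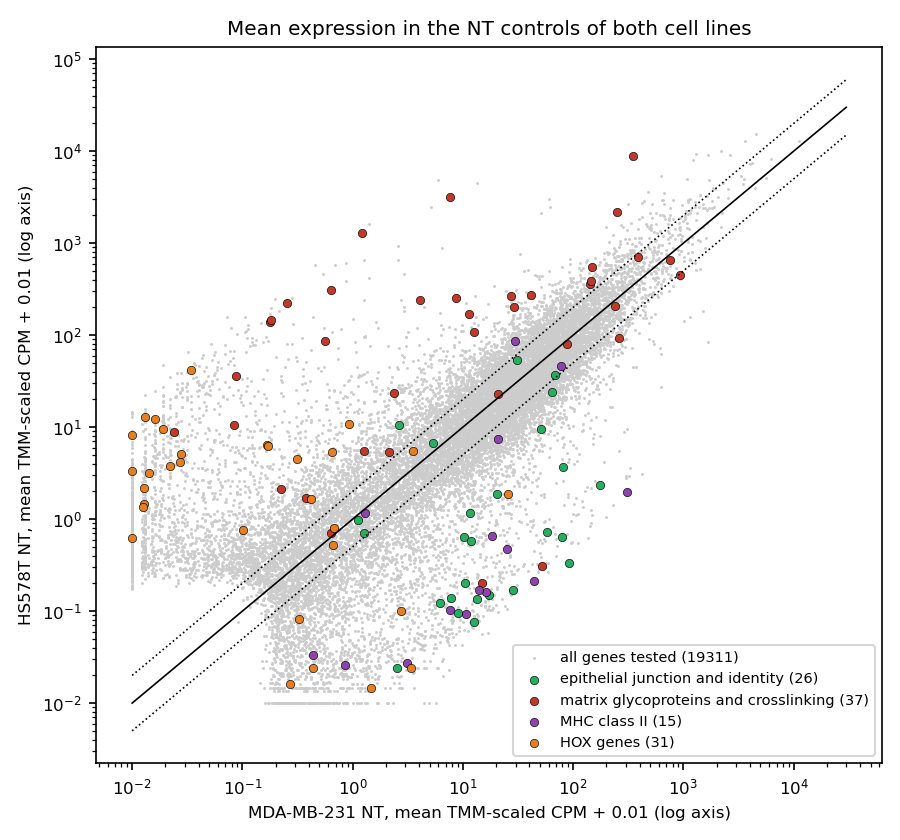
Mean TMM-scaled CPM of 19311 genes in the 6 MDA-MB-231 NT libraries (x axis) against the 6 HS578T NT libraries (y axis), both on log axes with 0.01 added, with 4 gene lists coloured. The solid line marks equal levels and the dotted lines a 2-fold difference. Matrix genes (red) lie mostly above the diagonal, and epithelial (green) and MHC class II genes (purple) mostly below.

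Of 1014 called genes that were higher in HS578T, did not overlap and reached 20 CPM in all its libraries, the largest differences belonged to FOXD1, SPOCK1, MAGEA1, THY1, PASD1, BGN, SULF1, PRAME, ENSG00000293062 and DPYSL4, at 10.78 to 11.39 without FOXD1. FOXD1, a forkhead transcription factor of stromal lineages, had 23.1 to 87.7 CPM (median 36.2) in HS578T. In MDA-MB-231 it had 3 reads over all 6 libraries, a ratio of 5469.8-fold (95% counting interval 1871 to 26528). The proteoglycan gene SPOCK1 had 109 to 240 CPM (median 151) in HS578T and 0 to 0.202 CPM (median 0.0228) in MDA-MB-231. THY1, a surface glycoprotein of fibroblasts and other mesenchymal cells, had 1119 to 2315 CPM (median 1515) in HS578T and 0 to 7.13 CPM (median 0.0277) in MDA-MB-231. In MDA-MB-231, THY1 was highest in siNT replicates 3 (7.13 CPM) and 2 (1.18 CPM), and its difference was 9.40 in siNT and 15.58 in shNT libraries. BGN encodes biglycan, a small matrix proteoglycan, and SULF1 a sulphatase that trims heparan sulphate. PRAME, MAGEA1 and PASD1 are cancer-testis genes, normally restricted to the germ line.

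The opposite rule left 912 genes. Of the 10 with the largest differences, 8 are reported, GPX3, GPAT2, CD74, SERPINB9, HLA-DRA, CDH4, KRT19 and PLEK2, at -7.95 to -7.74. GPX3, the secreted glutathione peroxidase, had 0.0284 to 3.28 CPM (median 0.614) in HS578T and 171 to 216 CPM (median 206) in MDA-MB-231. All 6 HS578T libraries lay below the 6 of MDA-MB-231, and the siNT libraries were the higher ones within HS578T. KRT19 is a keratin of simple epithelia and CD74 the invariant chain of MHC class II. For all 8 genes the shNT libraries gave the larger difference, -11.68 against -6.46 in siNT for CDH4 and -9.57 against -6.61 for KRT19.

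**Figure D2:**
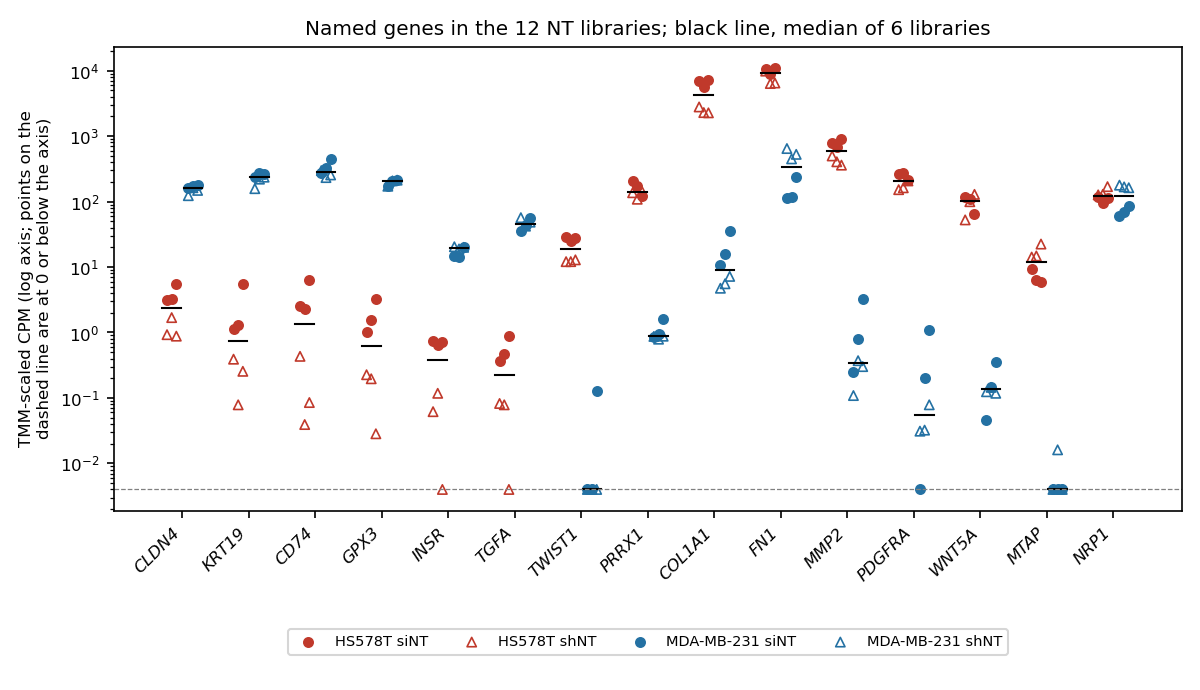
TMM-scaled CPM (log axis) of 15 named genes in each of the 12 NT libraries, HS578T in red and MDA-MB-231 in blue, siNT as filled circles and shNT as open triangles, with a black line at the median of 6. Points on the dashed line are at 0 or below the axis. The lines do not overlap in any gene drawn except NRP1.

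The markers that define the subtype differed between the lines. CLDN3, CLDN4, CLDN7 and CDH1, which claudin-low cells are expected to lack, were all over 2-fold lower in HS578T (4 of 4 tested). CLDN4, a claudin of tight junctions, had 0.879 to 5.48 CPM (median 2.40) in HS578T and 123 to 178 CPM (median 161) in MDA-MB-231, a difference of -6.15 ± 0.33 (SE; adjusted p = 7.80e-10). CLDN7 had 0 to 0.942 CPM (median 0.368) in HS578T and 13.6 to 38.9 CPM (median 25.9) in MDA-MB-231. CDH1, which encodes E-cadherin, stayed under 2 CPM in every library, with 0.0392 to 0.223 CPM (median 0.0938) in HS578T and 0.406 to 1.53 CPM (median 0.881) in MDA-MB-231. Thus CLDN4 and CLDN7 were present in MDA-MB-231 and near 0 in HS578T, while CDH1 was low in both. Of the markers that claudin-low cells express, VIM, the mesenchymal intermediate filament vimentin, was higher in HS578T (1.81 ± 0.12), ITGA6, an integrin of basal and stem-like cells, was lower (-2.47 ± 0.15), and ZEB1 (-0.10 ± 0.31, adjusted p = 0.771) and SNAI1 (-0.65 ± 0.31, adjusted p = 0.0758) did not pass the test. ERBB2 had 48.1 to 92.0 CPM (median 64.9) in HS578T and 73.7 to 105 CPM (median 87.9) in MDA-MB-231, which overlapped, and did not pass the 2-fold test (-0.36 ± 0.15).

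Genes of epithelial junctions and identity were lower in HS578T. Of 26 tested, 20 were over 2-fold lower and 1 higher, with a median difference of -4.85, compared with -0.04 over all genes. DSC2, PKP2 and EPCAM, which encode a desmosomal cadherin, a desmosomal plaque protein and an epithelial adhesion molecule, differed by -7.48 ± 0.43, -7.46 ± 0.51 and -7.08 ± 0.48. ESRP2, a splicing factor of epithelial cells, had 0.0742 to 0.171 CPM (median 0.133) in HS578T and 10.6 to 16.1 CPM (median 13.4) in MDA-MB-231. SPINT2, a protease inhibitor, had 0.652 to 5.31 CPM (median 2.32) in HS578T and 122 to 217 CPM (median 178) in MDA-MB-231. The only member called higher was CD24, at 2.03 ± 0.28, a surface sialoglycoprotein with 6.28 to 24.8 CPM (median 8.12) in HS578T and 1.53 to 4.15 CPM (median 2.42) in MDA-MB-231.

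Keratins went both ways, with more of them lower in HS578T. Of 13 tested, 7 were over 2-fold lower and 3 higher, against 19.1% and 20.1% of all genes. The count of higher ones was near the share of all genes. KRT80, KRT7 and KRT8 were lower, at -5.07 ± 0.28, -4.09 ± 0.27 and -3.03 ± 0.35. KRT18, the partner of KRT8 in simple epithelia, overlapped, with 64.4 to 1410.3 CPM (median 398) in HS578T and 633 to 933 CPM (median 725) in MDA-MB-231. Within HS578T all siNT libraries lay below all shNT libraries. Its difference of -1.32 ± 0.52 did not pass the 2-fold test (adjusted p = 0.254), and it was -2.93 in siNT and 0.29 in shNT libraries. The basal keratin KRT14 was higher in HS578T, with 159.9 to 1507 CPM (median 466) in HS578T and 0 to 2.11 CPM (median 0.0212) in MDA-MB-231, and KRT16, a keratin of activated epidermis, differed by 5.47 ± 0.42.

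Transcription factors of EMT and mesenchymal adhesion genes were higher in HS578T. Of 19 tested, 13 were over 2-fold higher and 0 lower, with a median of 7.55. TWIST1, which represses E-cadherin and marks mesoderm, had 12.1 to 28.3 CPM (median 18.9) in HS578T and 0 to 0.129 CPM (median 0) in MDA-MB-231. TWIST2 followed at 9.70 ± 0.66. PRRX1, a homeobox factor of limb and craniofacial mesenchyme, had 108 to 207 CPM (median 140.2) in HS578T and 0.790 to 1.62 CPM (median 0.874) in MDA-MB-231. For these genes the groups did not overlap. SNAI2 was higher by 3.47 ± 0.17. N-cadherin (CDH2) had 41.8 to 78.8 CPM (median 53.5) in HS578T and 0.186 to 0.515 CPM (median 0.262) in MDA-MB-231, and CDH13 and CDH6 differed by 10.39 ± 0.53 and 10.34 ± 0.53. S100A4, a calcium-binding protein of motile cells, was the lowest of the list, at -1.24 ± 0.25, and was not called past 2-fold (adjusted p = 0.142).

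Genes of the extracellular matrix were higher in HS578T. Of 21 collagens tested, 12 were over 2-fold higher and 2 lower, with a median of 2.23. COL1A1, a chain of type I collagen, had 2265 to 7288 CPM (median 4237) in HS578T and 4.74 to 35.4 CPM (median 9.05) in MDA-MB-231, a difference of 8.51 ± 0.32 (adjusted p = 7.68e-11). Its partner chain COL1A2 differed by 10.73 ± 1.02, and COL3A1 of type III collagen by 10.22 ± 0.80. In HS578T, COL1A1 was higher in all siNT than in all shNT libraries. The type VI chains COL6A1, COL6A2 and COL6A3, which form microfilaments around cells, differed by 5.62 ± 0.22, 5.30 ± 0.29 and 8.82 ± 0.47. COL13A1, a transmembrane collagen, and COL27A1 were the members called lower, at -2.56 ± 0.20 and -1.34 ± 0.15. COL27A1 missed the 2-fold call without HS578T siNT replicate 2 (glmTreat adjusted p = 0.0522), in shNT libraries alone (0.0501) and in DESeq2 (adjusted p = 0.163).

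Among 37 matrix glycoproteins and crosslinking enzymes, 25 were over 2-fold higher and 3 lower, with a median of 2.96. Fibronectin (FN1) had 6353 to 10942 CPM (median 9289.6) in HS578T and 112 to 645 CPM (median 343) in MDA-MB-231, and SPARC, a collagen-binding glycoprotein, had 1591 to 4592 CPM (median 3557) in HS578T and 3.22 to 19.5 CPM (median 5.89) in MDA-MB-231. Decorin (DCN) and periostin (POSTN) differed by 9.91 ± 0.84 and 9.91 ± 0.81, and the collagen crosslinker LOX by 2.69 ± 0.23. The 3 members called lower were LOXL4, a further lysyl oxidase (-7.68 ± 0.77), and the laminin-332 chains LAMA3 (-6.31 ± 0.37) and LAMB3 (-1.37 ± 0.18), which belong to epithelial basement membrane. LAMB3 missed the call without HS578T siNT replicate 1 or 2 (glmTreat adjusted p = 0.0713 and 0.0747), in shNT libraries alone (-0.89, 0.81) and in the fit of 18 libraries (0.101). It also missed it in DESeq2 (adjusted p = 0.301) and limma-voom (0.0632).

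Proteases followed no single direction. Of 25 tested, 7 were higher and 3 lower, against 20.1% and 19.1% of all genes. Their median was 0.48 (0.03 with library totals and -0.14 on the TPM scale). The gelatinase MMP2 had 360 to 892 CPM (median 594) in HS578T and 0.109 to 3.29 CPM (median 0.336) in MDA-MB-231, whereas the collagenase MMP1 had 0.556 to 6.28 CPM (median 1.04) in HS578T and 45.1 to 158 CPM (median 87.8) in MDA-MB-231, so that these enzymes lay on opposite sides of the comparison (9.74 ± 0.60 and -5.54 ± 0.63). MMP9 was lower, at -4.42 ± 0.52. The urokinase gene PLAU was not called past 2-fold (-0.96 ± 0.18). Integrins, the receptors for matrix, split as well, with 8 higher and 3 lower of 16 and a median of 0.54 (0.09 with library totals and -1.05 on the TPM scale). ITGA4, ITGA11 and ITGA5 were higher by 10.32 ± 0.44, 10.12 ± 0.73 and 2.55 ± 0.14. ITGB4, the laminin receptor of hemidesmosomes, was lower, at -3.69 ± 0.62 and ITGA2 at -2.61 ± 0.22.

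Smooth-muscle contractile genes were higher in HS578T. Of 23 contractile genes and targets of serum response factor (SRF), 11 were over 2-fold higher and 0 lower, with a median of 1.16. ACTG2, enteric smooth-muscle actin, had 13.6 to 118 CPM (median 26.99) in HS578T and 0 to 0.113 CPM (median 0.0459) in MDA-MB-231. The tropomyosin gene TPM2 had 683 to 1256 CPM (median 847) in HS578T and 4.51 to 12.4 CPM (median 5.53) in MDA-MB-231, and the actin gene ACTA2 differed by 3.49 ± 0.52. TAGLN overlapped, with 103 to 609.9 CPM (median 188) in HS578T and 23.4 to 175 CPM (median 82.6) in MDA-MB-231, although its difference of 1.72 ± 0.27 passed the 2-fold test (adjusted p = 0.00562). In shNT libraries alone it did not (1.26, glmTreat adjusted p = 0.248). Nor did it with library totals (1.26), on the TPM scale (0.84) or in limma-voom (adjusted p = 0.0596). MYOCD, the cardiac and smooth-muscle coactivator of SRF, had 0.630 to 10.6 CPM (median 2.97) in HS578T and 1 read over the 6 MDA-MB-231 libraries. SRF binds the CArG box, and the 250 bases before the start of ACTG2 in RefSeq (GRCh38.p14, chr2:73892758-73893007 (plus strand)) are shown for the member with the largest difference, with matches in capitals.
ACTG2: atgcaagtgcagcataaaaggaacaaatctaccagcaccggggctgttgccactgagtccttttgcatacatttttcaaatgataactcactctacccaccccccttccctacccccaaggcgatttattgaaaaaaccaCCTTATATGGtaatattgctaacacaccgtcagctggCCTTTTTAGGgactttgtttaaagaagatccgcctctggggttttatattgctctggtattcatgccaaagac
The matches begin 110 and 73 bases before the start. Of 19 members with a RefSeq promoter, 5 (26.3%) held a CArG box in these 250 bases on either strand, compared with 1.16% of 35116 promoters. The other 4 were SRF, CNN2, TPM4 and FLNA, of which none was called past 2-fold, at -0.81, 0.42, 0.89 and 1.10. The list was drawn up to include SRF targets, so its choice itself favours a share above that of all promoters.

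Neither neuropilin passed the test. NRP1, a co-receptor for semaphorins and vascular endothelial growth factors, overlapped, with 96.3 to 169 CPM (median 121) in HS578T and 60.5 to 178 CPM (median 123) in MDA-MB-231. Within MDA-MB-231 all siNT libraries lay below all shNT libraries. Its difference of 0.17 ± 0.17 did not pass the test (adjusted p = 0.364). In siNT libraries it was 0.60 and in shNT libraries -0.26, and this change between modalities did pass (-0.86, adjusted p = 0.0231). NRP2 behaved likewise, at 0.59 in siNT and -2.02 in shNT libraries. Of 22 genes of ligands, neuropilins, plexins and VEGF receptors, 5 were over 2-fold higher and 3 lower in HS578T, against 20.1% and 19.1% of all genes. Their median was 0.25 (-0.21 with library totals and -0.50 on the TPM scale). The plexin PLXNA4, a signalling partner of neuropilins, had 12.4 to 36.4 CPM (median 31.3) in HS578T and 0.660 to 1.79 CPM (median 0.984) in MDA-MB-231. The ligands PGF and SEMA3F were higher by 1.84 ± 0.14 and 1.83 ± 0.35, and SEMA3E and SEMA3D lower, at -5.08 ± 0.42 and -2.98 ± 0.47. SEMA3F missed the call in shNT libraries alone (0.92, glmTreat adjusted p = 0.592). KDR, the main VEGF receptor, was lower, at -2.82 ± 0.45, with overlap, at 0.144 to 1.13 CPM (median 0.410) in HS578T and 1.04 to 8.90 CPM (median 4.35) in MDA-MB-231. VEGFA was higher but not past 2-fold (0.99 ± 0.14).

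Receptor tyrosine kinases counted 6 higher and 4 lower of 23, against 20.1% and 19.1% of all genes. Their median was 0.09 (-0.37 with library totals and -0.61 on the TPM scale). PDGFRA, a platelet-derived growth factor receptor of mesenchymal cells, had 152 to 274 CPM (median 209) in HS578T and 0 to 1.10 CPM (median 0.0554) in MDA-MB-231. PDGFRB and DDR2, a receptor for fibrillar collagen, were higher by 4.33 ± 0.31 and 7.82 ± 0.29. The insulin receptor INSR had 0 to 0.742 CPM (median 0.380) in HS578T and 14.1 to 20.4 CPM (median 19.4) in MDA-MB-231, and IGF1R was lower, at -2.39 ± 0.15. EGFR was not called past 2-fold (-0.62 ± 0.14), whereas its ligands TGFA (-7.38 ± 0.52), AREG (-6.82 ± 0.52), EREG (-6.39 ± 0.40) and HBEGF (-2.25 ± 0.27) were all lower in HS578T. Of 22 growth factors and binding proteins, 11 were lower and 7 higher. FGF2, IGFBP5 and IGFBP3 were higher, by 9.57 ± 0.51, 8.08 ± 0.58 and 3.70 ± 0.31.

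Genes at the output of the MAPK pathway were lower in HS578T or not called. Of 25 tested, 8 were over 2-fold lower and 0 higher, with a median of -0.80. DUSP6, a phosphatase induced by and acting on ERK, had 6.13 to 13.1 CPM (median 9.51) in HS578T and 57.1 to 128 CPM (median 90.4) in MDA-MB-231. DUSP5 differed by -2.49 ± 0.21, MYC by -2.33 ± 0.20 and CCND1, which encodes cyclin D1, by -1.69 ± 0.15. HRAS, a GTPase upstream of the pathway, was not called past 2-fold (0.88 ± 0.24, 2-fold test, adjusted p = 0.723).

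In the TGF-beta, BMP and activin list, 12 of 28 genes were higher and 4 lower, with a median of 1.07. Over all genes, 20.1% were higher and 19.1% lower, so the lower members were no more frequent than among all genes. TGFB1 had 491 to 661 CPM (median 625) in HS578T and 86.0 to 105 CPM (median 89.7) in MDA-MB-231, and the activin subunit INHBB differed by 7.26 ± 0.34. The BMP antagonist NOG and the ligand BMP4 were lower, at -5.69 ± 0.26 and -3.81 ± 0.27, with BMP4 at 3.52 to 23.3 CPM (median 6.75) in HS578T and 51.4 to 189 CPM (median 114.4) in MDA-MB-231. ID2 and ID3, targets of BMP signalling, were higher by 6.78 ± 0.26 and 5.29 ± 0.35, while the further targets ID1 (0.11, edgeR adjusted p = 0.576) and SMAD6 (0.33, 0.146) did not pass the test. Of 35 Wnt and Notch genes, 17 were higher and 5 lower, the latter again no more frequent than among all genes. Their median was 0.89 (0.43 with library totals and -0.05 on the TPM scale). WNT5A, a non-canonical Wnt ligand, had 52.4 to 129 CPM (median 104) in HS578T and 0.0455 to 0.349 CPM (median 0.135) in MDA-MB-231. The Wnt inhibitor DKK1 had 1.19 to 20.6 CPM (median 4.53) in HS578T and 75.9 to 252 CPM (median 145) in MDA-MB-231, while the secreted inhibitor SFRP2 was higher by 9.81 ± 0.61. NOTCH3 was higher (5.95 ± 0.42) and NOTCH1 lower (-1.75 ± 0.20).

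**Figure D3:**
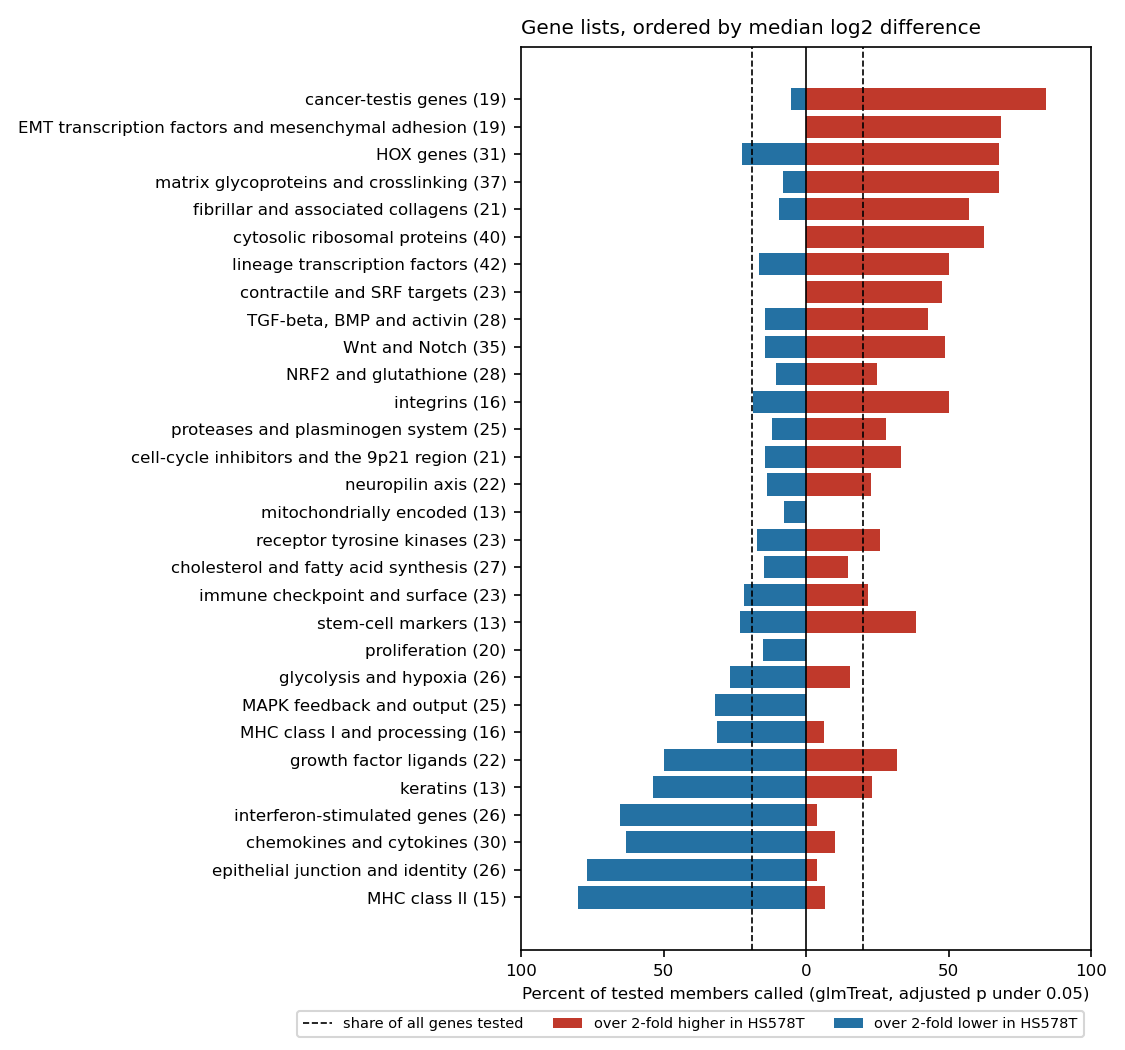
Percent of tested members over 2-fold higher (red, to the right) or lower (blue, to the left) in HS578T for 30 lists with at least 10 tested genes each, the number tested in brackets. Dashed lines mark the shares over all 19311 genes, 20.1% and 19.1%. Lists are ordered by median log2 difference, from MHC class II at the bottom to cancer-testis genes at the top.

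Cytokines were lower in HS578T. Of 30 tested, 19 were over 2-fold lower and 3 higher, with a median of -3.17. The neutrophil chemoattractant CXCL1 had 0 to 0.457 CPM (median 0.0185) in HS578T and 2.56 to 45.5 CPM (median 18.5) in MDA-MB-231, and IL18 had 0.0284 to 0.314 CPM (median 0.0968) in HS578T and 9.93 to 25.0 CPM (median 15.0) in MDA-MB-231. IL6 was lower (-3.02 ± 0.59), with 3.74 to 6.91 CPM (median 5.22) in HS578T and 8.48 to 183 CPM (median 77.7) in MDA-MB-231, and its difference was -4.79 in siNT and -1.22 in shNT libraries. CXCL12, the stromal ligand of CXCR4, was the opposite case, with 58.6 to 257 CPM (median 124) in HS578T and 0 to 0.349 CPM (median 0.0155) in MDA-MB-231. TSLP, an alarmin, had no read in MDA-MB-231 and was at least 288-fold higher in HS578T against the floor of 3 counts over 6 libraries. Of 26 interferon-stimulated genes, 17 were lower and 1 higher, with a median of -2.78. MX1, an antiviral GTPase, had 0.170 to 0.927 CPM (median 0.649) in HS578T and 24.8 to 36.0 CPM (median 32.4) in MDA-MB-231, and OAS3 and HERC5 were lower, at -5.63 ± 0.29 and -7.48 ± 0.57. BST2, which tethers virions, was the member called higher (1.50 ± 0.23) and overlapped between the lines. It missed the call in siNT libraries alone (0.80), with library totals (1.04), on the TPM scale (0.71), in limma-voom (adjusted p = 0.093) and without MDA-MB-231 shNT replicate 2 (glmTreat adjusted p = 0.05005).

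MHC class II genes, which present antigen to helper T cells, were lower in HS578T. CIITA switches these genes on through the RFX complex and NF-Y, which bind upstream of them, and of 15 genes tested 12 were over 2-fold lower and 1 higher in HS578T, with a median of -5.75. CD74 had 0.0392 to 6.33 CPM (median 1.35) in HS578T and 232 to 454 CPM (median 287) in MDA-MB-231. HLA-DRA had 0.0284 to 0.571 CPM (median 0.142) in HS578T and 23.8 to 61.7 CPM (median 46.6) in MDA-MB-231, and CIITA itself had 0.340 to 1.06 CPM (median 0.636) in HS578T and 13.4 to 25.1 CPM (median 18.2) in MDA-MB-231. Of the RFX subunits, RFX5 was not called past 2-fold (-0.75 ± 0.11), and RFXANK was higher by 1.49 ± 0.21, a call lost in siNT libraries alone (0.87, glmTreat adjusted p = 0.867), with library totals and on the TPM scale. Reads of polymorphic HLA genes, HLA-DRB1 and HLA-DRB5 in particular, can be split between near-identical copies and alleles, and these values are uncertain. NF-Y binds the Y box, ATTGG, and the 250 bases before the RefSeq start (GRCh38.p14) of CD74, the most abundant member, at chr5:150412911-150413160 (minus strand), and of HLA-DPB1, a class II beta chain with a difference of -6.44, at chr6:33075740-33075989 (plus strand), are shown with both strands' matches in capitals.
CD74: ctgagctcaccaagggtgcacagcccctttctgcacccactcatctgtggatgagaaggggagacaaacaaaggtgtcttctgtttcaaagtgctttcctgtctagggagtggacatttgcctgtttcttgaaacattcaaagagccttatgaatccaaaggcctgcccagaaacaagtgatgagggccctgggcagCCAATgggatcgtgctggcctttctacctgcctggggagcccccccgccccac
HLA-DPB1: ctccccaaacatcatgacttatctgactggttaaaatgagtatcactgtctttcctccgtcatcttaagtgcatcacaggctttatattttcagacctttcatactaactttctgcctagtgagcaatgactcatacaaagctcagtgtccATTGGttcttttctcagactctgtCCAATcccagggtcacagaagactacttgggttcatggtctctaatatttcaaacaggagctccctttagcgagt
CD74 holds 1 match and HLA-DPB1 holds 2. Among 14 members with a RefSeq promoter, 11 (78.6%) held the motif in this window, compared with 32.0% of 35116 promoters. As NF-Y binds upstream of class II genes, the choice of this list itself favours the motif. MHC class I genes counted 5 lower and 1 higher of 16 and a median of -0.83. HLA-B was lower, at -3.49 ± 0.33, B2M, its light chain, was not called past 2-fold (-0.63 ± 0.20), and the trimming peptidase ERAP2 was higher (3.27 ± 0.23).

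Among 23 immune checkpoint, adhesion and complement genes, 5 were higher and 5 lower, near the shares over all genes (20.1% and 19.1%). ICAM1, a ligand of leukocyte integrins, had 0.680 to 13.6 CPM (median 4.73) in HS578T and 217 to 385 CPM (median 236) in MDA-MB-231. PD-L1 (CD274) had 0.586 to 1.41 CPM (median 1.03) in HS578T and 11.2 to 18.8 CPM (median 13.6) in MDA-MB-231. Complement C1R was higher in HS578T by 3.25 ± 0.47 and C3 lower, at -3.76 ± 0.48. Of 13 stem-cell markers, 5 were higher and 3 lower. CD44, the hyaluronan receptor, was abundant in both lines, at 1437 to 3038 CPM (median 2490.2) in HS578T and 661 to 881 CPM (median 722) in MDA-MB-231, and ALDH1A3, a retinal dehydrogenase of mammary stem-like cells, was lower, at -3.09 ± 0.34. Markers of other cells were checked. Of 8 endothelial markers, 4 of 7 tested were lower and 2 higher in HS578T, and their summed level was 7.13 to 26.2 TPM in HS578T and 244 to 324 TPM in MDA-MB-231. ESAM, EGFL7 and ROBO4 made up most of it, at means of 119, 121 and 44.5 TPM in MDA-MB-231, where the defining markers CDH5 and VWF were at 0.573 and 0.112 TPM. Of 8 leukocyte markers, 5 were too low to be tested, 1 was lower and 0 higher. Of 6 luminal markers tested, 5 were lower and 1, FOXA1, was higher (5.70). Of the hormone receptors, ESR1 was too low to be tested, and PGR had no read in HS578T and 102 over the 6 MDA-MB-231 libraries.

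On chromosome arm 9p, a run of genes was near silent in MDA-MB-231. CDKN2A and CDKN2B encode inhibitors of the kinases CDK4 and CDK6, and MTAP, next to them, an enzyme of methionine salvage. MTAP, at chr9:21802636-21937651, had 5.96 to 22.4 CPM (median 11.7) in HS578T and 1 read over all 6 MDA-MB-231 libraries, a ratio of 4369-fold (95% counting interval 783 to 172622). CDKN2B had 3 reads there, a ratio of 2151-fold (95% counting interval 736 to 10436). CDKN2A and the antisense RNA CDKN2B-AS1 had none, and were at least 60.7-fold and at least 232-fold higher in HS578T. KLHL9, 0.649 Mb away towards the telomere, had 9.90 to 19.5 CPM (median 16.7) in HS578T and 0 to 0.0735 CPM (median 0) in MDA-MB-231. FOCAD, 1.15 Mb away, kept a low level in MDA-MB-231 (0.836 to 1.62 CPM (median 1.22)) against 27.4 to 43.0 CPM (median 39.1) in HS578T. MLLT3, the next gene out, overlapped, with 6.59 to 25.7 CPM (median 10.4) in HS578T and 7.69 to 12.7 CPM (median 10.9) in MDA-MB-231. Farther out, the 7 tested genes between MLLT3 and CNTLN had means of 1.09 CPM (ACER2) to 733 CPM (RPS6) in MDA-MB-231, and PLIN2, a lipid droplet protein, was higher there (96.2 against 0.543 CPM). CNTLN had a mean of 0.0106 CPM in MDA-MB-231 against 7.98 CPM in HS578T. In SUM159PT, the third line of the study, the means of MTAP and CDKN2A over its 6 NT libraries were 0.0533 and 0.05 TPM, compared with 7.60 and 0.752 TPM in HS578T. Names and positions are from GENCODE 44 on GRCh38.

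**Figure D4:**
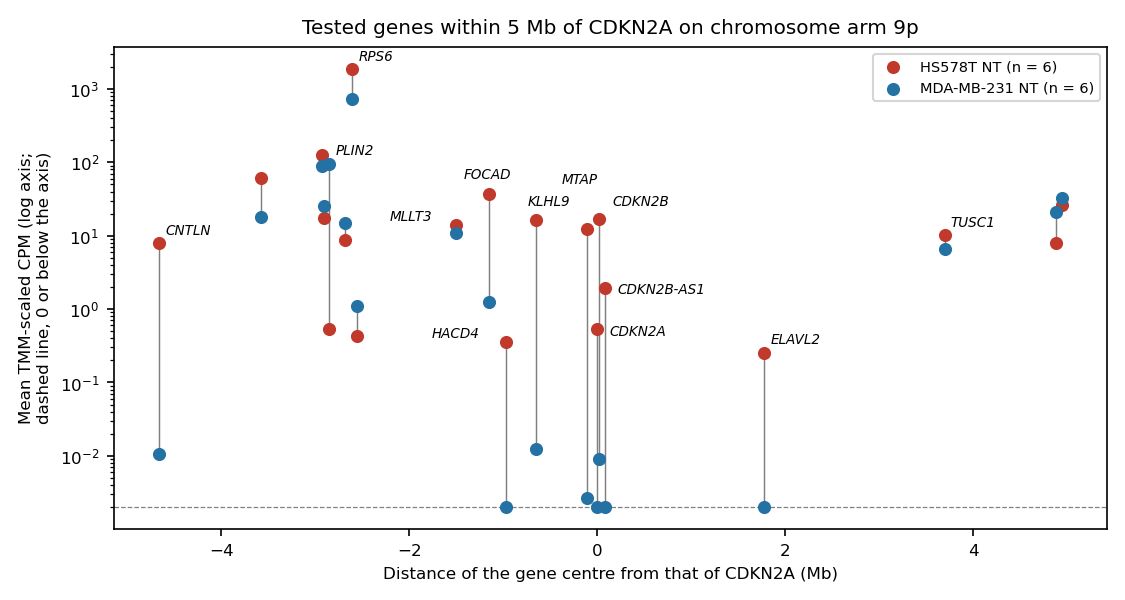
Mean TMM-scaled CPM (log axis) of the tested genes within 5 Mb of CDKN2A in HS578T (red) and MDA-MB-231 (blue), by distance of the gene centre from that of CDKN2A in Mb. Grey lines join both lines' values, and points on the dashed line are at 0 or below the axis. From HACD4 to ELAVL2 the MDA-MB-231 points lie near the bottom.

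Of 21 cell-cycle inhibitors and 9p21 genes, 7 were over 2-fold higher, all of them in the 9p21 region, and 3 lower, with a median of 0.26 (-0.19 with library totals and -0.67 on the TPM scale). Of 20 proliferation genes, 3 were over 2-fold lower and 0 higher in HS578T, with a median of -0.67. Over all genes tested, 19.1% were lower and 20.1% higher by this call. The lower ones were MKI67, the antigen of cycling cells (-1.84 ± 0.21), and the replication helicase subunits MCM3 (-1.61 ± 0.31) and MCM6 (-1.33 ± 0.15). Without HS578T siNT replicate 2, MCM3 and MCM6 missed the call (glmTreat adjusted p = 0.0811 and 0.0556), as did MCM3 without its replicate 1 (0.0752). In shNT libraries alone, the differences were -0.86 and -0.95. RB1 was lower, at -1.70 ± 0.22, with 7.505 to 21.3 CPM (median 17.4) in HS578T and 40.6 to 65.9 CPM (median 54.0) in MDA-MB-231.

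Redox and metabolic genes went both ways, as all genes tested did (20.1% over 2-fold higher and 19.1% lower). Of 28 NRF2 and glutathione genes, 7 were higher and 3 lower. The aldo-keto reductase AKR1C1 had 92.6 to 498 CPM (median 216) in HS578T and 0.761 to 5.35 CPM (median 2.69) in MDA-MB-231 and AKR1B10 was higher by 4.86 ± 0.36, while TXNRD1, thioredoxin reductase, was lower, at -2.77 ± 0.13 with no overlap. Of 26 glycolysis and hypoxia genes, 4 were higher and 7 lower. The lactate transporters lay on opposite sides, with SLC16A1 (MCT1) at 37.0 to 73.3 CPM (median 48.8) in HS578T and 0.0155 to 0.974 CPM (median 0.326) in MDA-MB-231 and SLC16A3 (MCT4) at 58.6 to 129 CPM (median 89.5) in HS578T and 316 to 729 CPM (median 444) in MDA-MB-231. ALDOC and EGLN3 were lower, at -5.18 ± 0.39 and -4.49 ± 0.48. Among 27 genes of lipid synthesis, 4 were higher and 4 lower, with a median of 0.04 (-0.41 with library totals and -0.73 on the TPM scale). FADS2, the delta-6 fatty acid desaturase, had 19.4 to 38.3 CPM (median 27.1) in HS578T and 379.7 to 763 CPM (median 646) in MDA-MB-231, ELOVL6 was lower, at -3.36 ± 0.16, and SQLE, squalene epoxidase, was higher by 2.29 ± 0.21.

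Positional and lineage factors differed in clusters. HOX genes give cells an identity along the body axis, and of 31 tested 21 were over 2-fold higher and 7 lower in HS578T, with a median of 5.23. Of 11 HOXA genes tested, 10 were higher and HOXA13 was not called. HOXA3 had 7.10 to 9.39 CPM (median 8.45) in HS578T and no read in MDA-MB-231, at least 967-fold higher. HOXC10 had 35.1 to 45.3 CPM (median 43.5) in HS578T and 0 to 0.0919 CPM (median 0) in MDA-MB-231. The lower members came from the HOXB and HOXD clusters, among them HOXD4 with 2.76 to 4.02 CPM (median 3.30) in MDA-MB-231 and 3 reads over the 6 HS578T libraries, a ratio of 227-fold (95% counting interval 77.5 to 1102). Of 42 lineage transcription factors, 21 were higher and 7 lower, against 20.1% and 19.1% of all genes. TBX2 and TBX3, T-box repressors, were higher by 9.98 ± 0.41 and 9.97 ± 0.65. LMX1B, TBX1 and GATA3, the last a factor of luminal mammary cells, were lower, at -8.16 ± 0.50, -6.81 ± 0.43 and -3.18 ± 0.22. FOXA1, the luminal marker named above, went the other way (5.70).

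Cancer-testis genes were higher in HS578T for 16 of 19 tested and lower for 1, with a median of 8.30 (7.82 with genes at 0 in a line set to their bound). CTAG2 had 155 to 271 CPM (median 189) in HS578T and 0 to 0.809 CPM (median 0) in MDA-MB-231. MAGEB2 was the member called lower (-3.58 ± 0.34). Families such as MAGEA, GAGE, SSX and CTAG hold near-identical copies, between which reads can be split, and single members are uncertain. Genes of cytosolic ribosomal proteins were higher in HS578T for 25 of 40 and lower for 0, with a median of 1.40 that stayed above 0 under each scaling, at 0.94 with library totals and 0.64 on the TPM scale. RPS20 had 2077 to 3599.9 CPM (median 2562) in HS578T and 246 to 386 CPM (median 304) in MDA-MB-231. Processed pseudogenes of this family can share its reads. Together these 40 genes made up 138234 to 165479 TPM in HS578T and 73279.8 to 90409.5 TPM in MDA-MB-231. Of 13 mitochondrially encoded genes, 1 was lower and 0 higher, with a median of 0.24 (-0.21 with library totals and -0.53 on the TPM scale).

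Medians were also taken by chromosome. Positions were found for 18479 of the 19311 genes, 14365 of them protein-coding and on an assigned chromosome. Medians per chromosome ran from -0.99 on chromosome 10 (553 genes, 26.2% of them higher in HS578T) to 0.71 on chromosome 22 (349 genes, 74.5%). Chromosome 4 stood at -0.90 and chromosome 13 at -0.77, while chromosome 19 stood at 0.68 and chromosome 8 at 0.52. Since library totals move the median of all genes by -0.45 and the TPM scale by -0.73, the level of each median rests on the scaling. The range from lowest to highest was 1.70, and 1.71 and 1.54 under these scalings. Medians from siNT and from shNT libraries lay close, at -1.04 and -0.93 for chromosome 10. In windows of 10 Mb with at least 20 genes (248), the lowest was at 40 to 50 Mb of chromosome 4, where 23 of 23 genes were lower (median -2.09). The highest was at 140 to 150 Mb of the X chromosome, which holds MAGEC1 and MAGEC2 (19 of 22 genes higher, median 4.43), followed by 140 to 150 Mb of chromosome 8 (70 of 84, median 1.39). These are descriptions, since neighbouring genes are not independent.

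**Figure D5:**
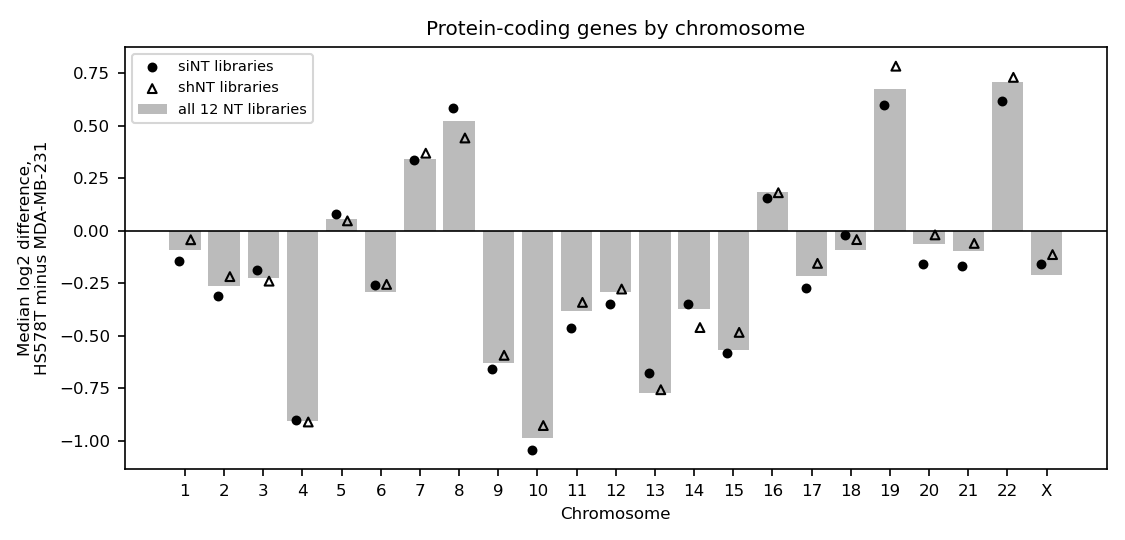
Median log2 difference (HS578T minus MDA-MB-231) of protein-coding genes by chromosome, as grey bars over all 12 NT libraries, filled circles from siNT and open triangles from shNT libraries. Chromosomes 10 and 4 are lowest and 22 and 19 highest, with both modalities beside each bar.

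Whether the difference between the lines depended on the control was tested as an interaction. It passed at an adjusted p under 0.05 for 2740 genes (14.2%), and 5833 genes had an unadjusted p under 0.05. The count was not stable to the libraries used. It was 4465 without HS578T shNT replicate 1 and 1324 without HS578T siNT replicate 2, and it moved by over 1.5 times, to between 1359 and 1771, without HS578T shNT replicate 2, any shNT replicate of MDA-MB-231, or its siNT replicates 1 or 2. Without siNT replicate 3 of both lines it was 3667. Among the genes at sizeable level in both lines, fibronectin (FN1) changed, at 6.03 in siNT and 3.81 in shNT libraries, as did KRT18, IL6, NRP1 and NRP2 above. siNT and shNT differ in delivery, culture time and selection at once, and these cannot be told apart.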

How the data were processed

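RNA of 12 NT libraries, 3 per cell line and modality, was analysed from the expected counts per gene that the authors deposited. Per the study's methods, the authors trimmed reads with Trim Galore 0.6.5, aligned them with STAR 2.7.2b to GRCh38 and counted them with RSEM 1.3.3. TPM values deposited by the authors were used to compare genes and for SUM159PT. Totals per library ran from 30001734 to 63173667. Intervals cover counting error only.

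Expected counts were rounded, genes of low count removed with filterByExpr (19311 kept), and libraries scaled by TMM. edgeR 4.0.16 (R 4.3.3) fitted cell line with modality as covariate (glmQLFit, glmQLFTest; glmTreat for over 2-fold), with Benjamini-Hochberg adjustment over all genes tested. Calls are at an adjusted p under 0.05. Adjusted p-values named as "2-fold test" come from glmTreat. Genes with 0 to 3 counts in a line are given by a floor of 3 counts per group or a ratio with a 95% interval. Alternatives were DESeq2 1.42.0, limma 3.58.1, other scalings and filters, single modalities, the 18 NT libraries together, single libraries left out, a replicate block, and, chosen after seeing the data, omission of siNT replicate 3 of both lines. The fit was also run on simulated data of 19311 genes, of which 100 were changed by a log2 of 1.5 and 100 by 3. The 2-fold test called 18 and 93 of them, and 11 of 185 calls of the quasi-likelihood test were false. In the data 72.8% of genes were called, so the simulation does not measure error rates where most genes differ. No libraries agreed within sampling noise.

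The members and the gene lists were chosen with earlier results of these data known. Named genes are the 10 with the largest difference in each direction among those past the 2-fold test, at 20 CPM or more in all libraries of the higher line and without overlap, and list members chosen for their role or their values after these were seen. Counting was strand-specific per the study's methods. Some genes that these rules select are not reported here. Groups came from the labels.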

Additional observations from a re-analysis of the deposited data

Results flagged for a closer look

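The difference between the cell lines itself differed between siNT and shNT libraries for 54 of 171 named genes. The call was edgeR's interaction term with adjusted p under 0.05 over all genes, which 14.2% of all genes tested passed. Named genes were chosen in part after their values were seen, so their share was not tested against that of all genes. Values here are the log2 difference in shNT libraries minus that in siNT libraries. Several of these genes had a mean in one line under 2% of that in the other, and the siNT libraries held trace RNA of the other line, at medians of up to 1.65% in HS578T and 0.438% in MDA-MB-231, whose part was not tested. Where HS578T was the low line, these were LOXL4 (-7.76), CDH4 (-5.22), LMX1B (-4.80), PLEK2 (-4.65), HERC5 (-4.32), GPAT2 (-4.07), PKP2 (-3.71), CD74 (-3.64), GPX3 (-3.64), TGFA (-3.49), HLA-DRA (-3.42), SERPINB9 (-3.28), KRT19 (-2.96), LAMA3 (-2.29) and CLDN4 (-1.57). Where MDA-MB-231 was the low line, they were COL6A1 (-0.90), CDH2 (1.27), SLC16A1 (2.31), AKR1C1 (2.33), HOXC10 (4.13), PRAME (4.64), CXCL12 (5.21), BGN (5.31), SPOCK1 (5.89), THY1 (6.19), KRT14 (6.61) and CTAG2 (7.38). Where a group had no reads, as CTAG2 had in the MDA-MB-231 shNT libraries (0 CPM), the size of the value is not a measured one.

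In the other genes, the mean of the lower line was near 2% of that of the other line or above it. Some of these were low in HS578T as well, such as INSR, MMP1 and ICAM1 at the levels given above. The part of trace RNA in their values was not tested either. The interaction was above 0 for MCM6 (0.82), LAMB3 (1.03), MYC (1.05), RFXANK (1.26), HRAS (1.38), BST2 (1.44), HBEGF (1.46), MCM3 (1.57), KRT18 (3.22) and IL6 (3.57). It was below 0 for INSR (-3.87), MMP1 (-2.69), NRP2 (-2.61), FN1 (-2.22), C1R (-2.16), ICAM1 (-1.98), KRT8 (-1.91), SEMA3F (-1.78), PDGFRB (-1.72), MLLT3 (-1.56), COL6A2 (-1.30), B2M (-1.14), NOTCH1 (-1.13), SQLE (-1.08), COL13A1 (-0.92), NRP1 (-0.86) and CD44 (-0.73). Groups of 3 libraries were too small for the outlier criterion, which was not applied.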

How the results depend on the processing

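Counts of genes called higher or lower stayed within 1.5 times the reported ones under every alternative fitted except 1. With limma on log2(TPM + 0.5), 3062 genes were higher and 1271 over 2-fold higher, and the range of chromosome medians was 1.54 instead of 1.70. DESeq2 called 7296 genes higher and 7052 lower. Leaving out single libraries gave 6873 to 7392 genes higher, 7009 to 7320 lower, 3956 to 4258 over 2-fold higher, 3642 to 3874 over 2-fold lower, 1324 to 4465 with an interaction and a chromosome range of 1.67 to 1.77. Some of the genes named turned in sign. With library totals, CNN2 was at -0.035, NRP1 at -0.28 and MLLT3 at -0.19, and on the TPM scale they were at -0.32, -0.50 and -0.39. With siNT libraries alone, ZEB1 was at 0.25 and NRP2 at 0.61. With shNT libraries alone, KRT18 was at 0.27, NRP1 at -0.29 and MLLT3 at -0.55. ZEB1, at -0.40 to 0.053 as single libraries were left out, was above 0 at 0.053 without HS578T shNT replicate 2 and at 0.036 without HS578T siNT replicate 3. Of 153 named genes past the 2-fold test, 16 lost that call under at least 1 alternative and 5 of them when a single library was left out. Besides those given above, CD44, RFXANK and SEMA3F lost it with library totals and, with CD24, KDR, PGF, SEMA3D and VIM, on the TPM scale, CD44, IL6 and SEMA3F lost it in shNT and NOTCH1 and RFXANK in siNT libraries alone, and MCM3 and MCM6 lost it in shNT libraries alone, DESeq2 and limma-voom. DESeq2 gave no adjusted p for 8 named genes. The causes were not tested.

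Between same-numbered libraries of both lines, deviations from the group mean correlated at -0.12 to 0.23, and between the others at -0.21 to 0.18. The trace RNA in siNT libraries rose with the replicate number in both lines. With 3 libraries per group, it cannot be told whether the numbers paired them. With replicate number as a block, 6718 genes were higher, 7028 lower, 3786 over 2-fold higher, 3644 over 2-fold lower and 2240 had an interaction. At the depth of these libraries, a gene not called past 2-fold may still differ.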
